A study of Mus musculus with 6 samples.

Results

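Somatostatin and growth hormone releasing hormone are the hypothalamic peptides that set growth hormone release, and 7 genes of their axis are described here in aged and young mouse hypothalamus. The 7 were taken by gene symbol and all 7 were found among 18228 genes in the count table: the peptide precursors Ghrh and Sst, the somatostatin receptors Sstr1, Sstr2 and Sstr3, the growth hormone receptor Ghr, and Socs2, which restrains signalling from that receptor. RNA came from whole hypothalamus of aged mice (22 months) and young mice (12 weeks), with 3 libraries a group, each taken as 1 mouse. The mice belonged to a study of cognitive decline with age; strain, sex and nucleus are not given in the labels, and both groups had free access to food and water. Each library held 17208291 to 18884403 counted reads.

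In textbook terms, GHRH neurons of the arcuate nucleus stimulate and somatostatin neurons of the periventricular nucleus inhibit the somatotroph cells of the pituitary. Somatostatin acts through receptors coupled to inhibitory G proteins, which lower cyclic AMP and open potassium channels. Growth hormone feeds back on the brain through its receptor, the kinase JAK2 and the factor STAT5, and Socs2 is a known STAT5 target that closes this loop. In rodents the axis also differs between the sexes.

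The libraries carried hypothalamic RNA: 15 of 15 hypothalamus markers had reads, with a summed level of 1365 to 1486 CPM in the aged group and 1392 to 1579 CPM in the young group. Of the 15, 2 rose and 1 fell in edgeR, where 3.22% of all genes rose and 3.64% fell. At an unadjusted p under 0.05, 7 were higher and 4 lower, and DESeq2 called 6 higher and 1 lower. The sums thus cover shifts of single markers in both directions. CPM here are reads relative to the library total after scaling by TMM factors. Reads of 4 Y-linked genes totalled 3394 to 3617 in each aged library, against 24 to 32 in each young library. By these reads the aged libraries looked male and the young ones female, so age and sex cannot be told apart in any difference below. Astrocyte markers summed to 2766 to 3747 CPM in the aged group and 4099 to 4347 CPM in the young group. Of these, 3 of 8 fell in edgeR, against 3.64% of all genes. Endothelium markers summed to 354.8 to 414 CPM in the aged group and 293.5 to 353.3 CPM in the young group. In edgeR 3 of 8 of them fell and 1 rose. Oligodendrocyte markers summed to 6905 to 7147 CPM in the aged group and 6318 to 8000 CPM in the young group, and 2 of 9 fell. Of 8 microglia markers, 1 rose and 1 fell. Neuron markers summed to 3592 to 3937 CPM in the aged group and 3786 to 4368 CPM in the young group, and none of 8 passed in edgeR (0 at an unadjusted p under 0.05, and 0 in DESeq2, limma-voom and limma-trend on FPKM). The part of these shifts in the results was not tested. In whole tissue, fewer cells of a type and less RNA per cell cannot be told apart.

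None of the 7 genes passed the test of aged against young (edgeR's quasi-likelihood test, Benjamini-Hochberg adjusted p under 0.05 over 14702 genes), where 6.86% of all genes tested passed. At an unadjusted p under 0.05 there were 4 of 7, against 26.2% of all genes. DESeq2 called 1 of the 7, Sstr2, and limma-voom and limma-trend on FPKM called 0. The groups did not overlap for 3 of 7, Sst, Sstr2 and Ghr, each with every aged library above every young one. Over all genes 31.7% did not overlap, 15.5% with the aged libraries above. The 7 genes had a median log2 fold change of -0.08, and all genes tested one of -0.0035.

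**Figure D1:**
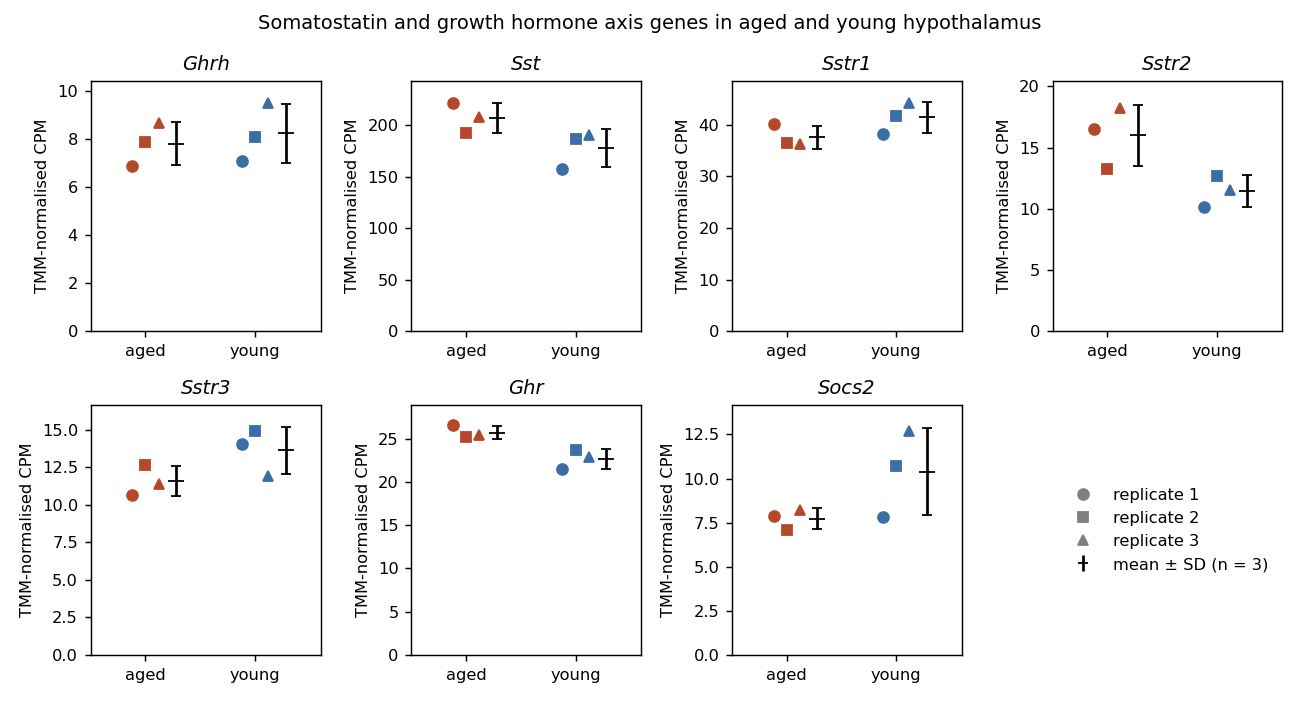
TMM-normalised CPM (y axis, from 0) of the 7 genes in each aged and young library (1 point a library, shape for the replicate number), with the mean and SD of 3 libraries beside the points. The aged points lie above the young points for Sst, Sstr2 and Ghr and overlap them for the other genes.

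Among the hypothalamic hormones, Sst was far more abundant than Ghrh. On FPKM, reads scaled to gene length and library total, Sst averaged 239.7 ± 14.9 in aged and 202 ± 22.1 in young libraries (SD, n = 3 each), and Ghrh averaged 13.4 ± 1.56 in aged and 13.9 ± 2.21 in young libraries. The FPKM of Sst was 16.2 to 21.7 times that of Ghrh in aged and 13.5 to 15.5 times in young libraries.

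Sst stood at 221, 192 and 207.5 CPM in aged replicates 1 to 3, against 157, 186 and 190.4 CPM in young replicates 1 to 3. The lowest aged and the highest young library were close together, and young replicate 1 was the lowest of the 6. The log2 fold change was 0.22 ± 0.08 (SE; 95% interval 0.03 to 0.41), or 1.16-fold, with an edgeR adjusted p of 0.138. Sst has a short gene model of 0.871 kb, and with a trend of counts on gene length removed from each library the log2 fold change was 0.11; without young replicate 1 it was 0.14.

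The Sst gene is a classical target of cyclic AMP through the CRE, a motif bound by CREB and related factors. The CRE TGACGTCA, which reads the same on both strands, was searched in the 250 bases before each start in RefSeq's promoter table (build GRCm38.p6), in which 5 of the 7 genes were found. It was present before Sst and Sstr2, neither of which passed in edgeR. For these 2 genes 150 bases before each start are shown, with the motif in capitals. The Sst stretch is chr16:23890845-23890994 on the minus strand, and the Sstr2 stretch is chr11:113619177-113619326 on the plus strand.
Sst: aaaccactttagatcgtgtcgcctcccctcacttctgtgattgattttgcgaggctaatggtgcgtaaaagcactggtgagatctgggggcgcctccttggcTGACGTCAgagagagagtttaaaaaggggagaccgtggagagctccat
Sstr2: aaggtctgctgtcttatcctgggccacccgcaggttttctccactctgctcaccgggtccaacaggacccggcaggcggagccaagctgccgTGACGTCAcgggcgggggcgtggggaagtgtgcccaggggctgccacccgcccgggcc
The motif began 48 bases before the start of Sst and 58 bases before that of Sstr2. Over all 32851 starts in the table, 1.55% held it. The windows of Ghrh, Sstr3 and Ghr did not, and the windows of Sstr1 and Socs2 were not searched. A second motif, the STAT element TTCNNNGAA, occurred before 7.02% of all starts and before none of the 5 genes. A match is a description of the sequence and not of binding.

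Ghrh stood at 6.89, 7.89 and 8.65 CPM in aged libraries and at 7.09, 8.10 and 9.51 CPM in young libraries. The groups covered nearly the same range. The log2 fold change was -0.08 ± 0.15 (SE; edgeR adjusted p = 0.778), and its 95% interval ran from -0.40 to 0.25. It was 0.012 without aged replicate 1, 0.049 without young replicate 3 and -0.22 with the gene length trend removed.

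The log2 ratio of Ghrh to Sst FPKM was -4.44, -4.04 and -4.02 in aged libraries and -3.90, -3.96 and -3.76 in young libraries. All 3 aged libraries lay below the young ones, with aged replicate 1 farthest. The mean was -4.16 ± 0.24 in aged and -3.87 ± 0.10 in young libraries (SD, n = 3 each), a difference of -0.29. The two-sided exact permutation p was 0.1, the smallest that 20 assignments allow, so this test cannot reach 0.05 with 3 libraries a group. Without aged replicate 1 the difference was -0.16.

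Of the receptors Sstr1, Sstr2 and Sstr3, Sstr2 had an estimate above 0 and the other two had estimates below 0. Sstr2, the receptor through which somatostatin and its analogues act most strongly on growth hormone release, stood at 16.5, 13.3 and 18.2 CPM in aged libraries and at 10.1, 12.7 and 11.6 CPM in young libraries. Aged replicate 2 was close to the highest young library. The aged mean was 16.0 ± 2.51 CPM and the young mean 11.5 ± 1.28 CPM (SD, n = 3 each). The log2 fold change was 0.48 ± 0.13 (SE; 95% interval 0.18 to 0.78), or 1.39-fold, with an edgeR adjusted p of 0.0626; 8.97% of all genes had a smaller p. The call depended on the processing: the adjusted p was 0.0171 in edgeR without aged replicate 2, 0.0347 in DESeq2 and 0.0497 in edgeR scaled by total counts alone, and ran up to 0.21 in edgeR without aged replicate 3.

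Sstr1, which is also found on somatostatin neurons as an autoreceptor, stood at 40.1, 36.4 and 36.2 CPM in aged libraries and at 38.2, 41.7 and 44.2 CPM in young libraries. The groups overlapped, and the log2 fold change was -0.14 ± 0.08 (SE; edgeR adjusted p = 0.304; -0.08 without young replicate 3). Sstr3, the receptor of neuronal primary cilia, stood at 10.65, 12.6 and 11.4 CPM in aged libraries and at 14.1, 14.9 and 11.9 CPM in young libraries. Young replicate 3 fell within the aged range, and the log2 fold change was -0.24 ± 0.12 (SE; edgeR adjusted p = 0.23; -0.15 on log2(FPKM + 1)). The intervals of both receptors, -0.32 to 0.04 and -0.50 to 0.02, include 0.

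The other receptors of the family were read beside these. Sstr5, a receptor that pituitary somatotrophs also carry, had 94, 102 and 102 reads in aged libraries and 69, 53 and 69 in young libraries. Its groups did not overlap, and its log2 fold change was 0.59 ± 0.16 (SE; edgeR adjusted p = 0.0538). Sstr4 had 83, 66 and 72 reads in aged libraries and 62, 89 and 75 in young libraries, with a log2 fold change of -0.08 ± 0.19 (SE; edgeR adjusted p = 0.823). Cort, the precursor of the related peptide cortistatin, had 1 to 11 reads a library and was not tested.

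Per gene length, Sstr1 and Sstr2 made up most of the receptor RNA. Sstr2 made up 35.0%, 32.1% and 38.7% of the summed FPKM of Sstr1 to Sstr5 in aged libraries and 26.1%, 28.5% and 27.1% in young libraries. The mean share was 35.3% ± 3.28 in aged and 27.2% ± 1.23 in young libraries (SD, n = 3 each), a difference of 8.08 percentage points with a two-sided exact permutation p of 0.1, the smallest possible. Sstr1 made up 35.9% ± 2.53 in aged and 42.3% ± 2.12 in young libraries, and was above Sstr2 in all 3 young but in 2 of 3 aged libraries. The sum itself was 25.1 ± 1.63 FPKM in aged and 22.9 ± 1.61 FPKM in young libraries, with overlapping groups (exact permutation p = 0.3). The authors' gene lengths enter these shares.

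**Figure D2:**
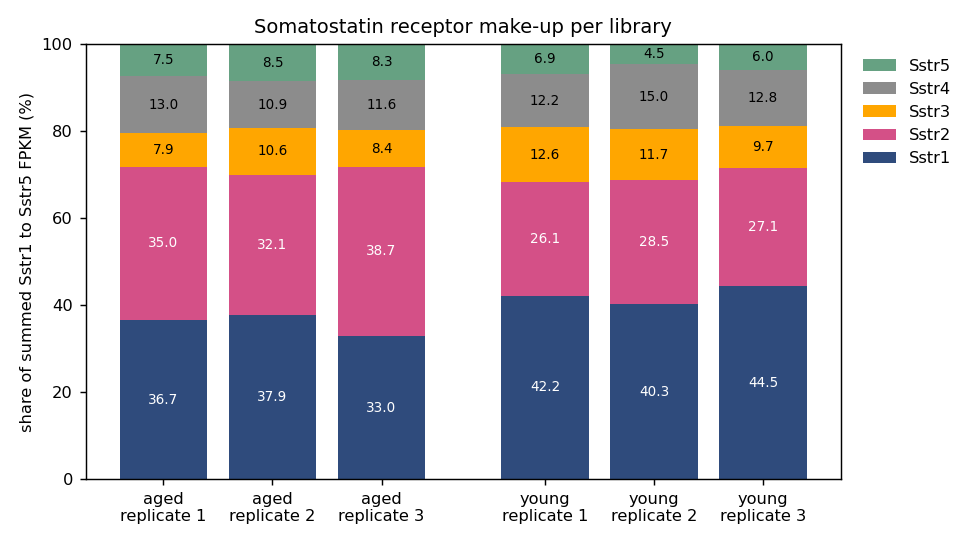
Share (y axis, %) of each somatostatin receptor gene in the summed FPKM of Sstr1 to Sstr5, 1 bar a library, aged on the left and young on the right. Sstr2 takes 32.1% to 38.7% in aged libraries and 26.1% to 28.5% in young libraries.

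On the receiving side of the axis, Ghr varied little within each group. It stood at 26.5, 25.1 and 25.4 CPM in aged libraries and at 21.45, 23.7 and 22.8 CPM in young libraries. The groups did not overlap, and the aged mean was 25.7 ± 0.736 CPM and the young mean 22.6 ± 1.12 CPM (SD, n = 3 each). The log2 fold change was 0.18 ± 0.08 (SE; 95% interval 0.01 to 0.35), or 1.13-fold, with an edgeR adjusted p of 0.165.

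Socs2 stood at 7.90, 7.06 and 8.19 CPM in aged libraries and at 7.795, 10.7 and 12.7 CPM in young libraries. Young replicate 1 lay within the aged range, and the young libraries spread over 2.46 CPM (SD, n = 3) against 0.588 CPM (SD, n = 3) in the aged libraries. The log2 fold change was -0.43 ± 0.17 (SE; 95% interval -0.81 to -0.05), with an edgeR adjusted p of 0.146. It was -0.25 without young replicate 3 and -0.17 on log2(FPKM + 1).

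Growth hormone itself is made in the pituitary, and its transcript separated single libraries from the rest. Gh had 5, 4 and 3 reads in aged libraries and 7, 67 and 1407 reads in young libraries. Prl, the prolactin gene, had 8, 6 and 4 reads in aged libraries and 6, 125 and 2561 reads in young libraries. Both were high in young replicate 3 and raised in young replicate 2, and neither passed the low-count filter. Ghrhr, the GHRH receptor of somatotrophs, had 5 reads in young replicate 3 and 0 in each of the other libraries. The 10 pituitary markers in the table summed to 13.8 to 33.5 CPM in the aged group and 19.5 to 242 CPM in the young group; none of the 4 tested passed in edgeR (1 at an unadjusted p under 0.05, 0 in DESeq2 and limma-voom, 1 in limma-trend on FPKM), and Pou1f1 had 0 reads in all libraries but 1. Young replicate 3 was also the highest young library for Socs2, Ghrh, Sst and Sstr1, and the part of pituitary RNA in these values was not tested. For Sst, Sstr2 and Ghr, the log2 fold changes without young replicate 3 were 0.28, 0.49 and 0.19.

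**Figure D3:**
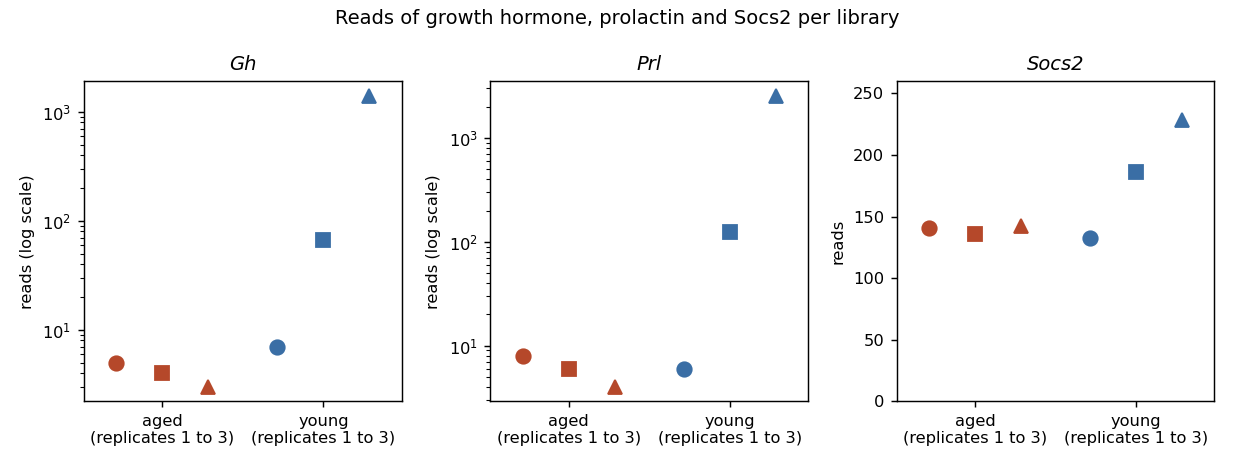
Reads per library of Gh and Prl (log y axes) and of Socs2 (linear y axis from 0), aged on the left and young on the right, with replicates 1, 2 and 3 from left to right as circle, square and triangle. Young replicate 3 has 1407 Gh, 2561 Prl and 228 Socs2 reads, the highest of the 6 libraries for each.

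**Figure D4:**
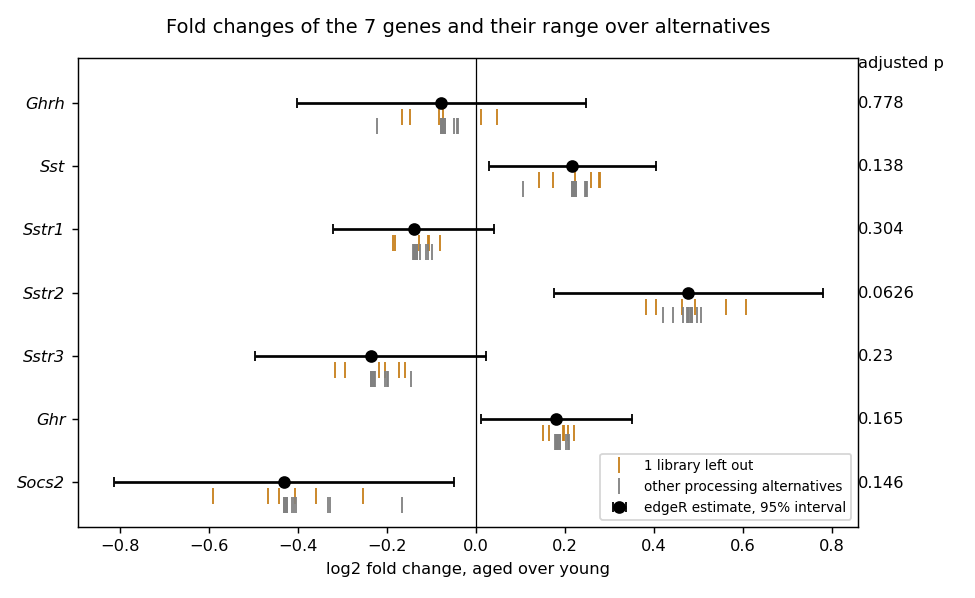
Log2 fold change, aged over young, of the 7 genes (black points, edgeR estimates with 95% intervals; edgeR adjusted p at the right), with the values after leaving out 1 library (orange ticks) and under other processing (grey ticks). No edgeR adjusted p over all 6 libraries is under 0.05 (Sstr2 passed in 3 of 18 alternatives), and the values of Ghrh fall on both sides of 0.

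Ordered by FPKM in aged libraries, Sst came first, then Ghrh, Sstr1 (8.97 ± 0.475), Sstr2 (8.88 ± 1.33), Ghr (5.74 ± 0.123), Sstr3 (2.23 ± 0.212) and Socs2 (0.649 ± 0.0447; SD, n = 3 each). Young libraries gave the same order, with Sstr1 at 9.69 ± 0.802, Sstr2 at 6.24 ± 0.693, Ghr at 4.96 ± 0.252, Sstr3 at 2.58 ± 0.266 and Socs2 at 0.857 ± 0.211 FPKM. Sstr1 and Sstr2 overlapped in aged libraries and not in young ones, and no other neighbours in the order overlapped in either group. The gene model of Socs2 is 12.0 kb long, which lowers its FPKM.

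Other genes of the growth hormone and insulin-like growth factor (IGF) axis were read from a list of 25, of which 17 were tested. Of these, 3 fell and 0 rose in edgeR (5 were higher at an unadjusted p under 0.05; 0 rose in DESeq2 and limma-voom and 1 in limma-trend on FPKM), where 3.64% of all genes fell and 3.22% rose. The 3 were Igf2 (log2 fold change -0.56 ± 0.09 SE, edgeR adjusted p = 0.013), Igf1r, the IGF-1 receptor (-0.39 ± 0.07, edgeR adjusted p = 0.0153), and Igfbp5, an IGF-binding protein (-0.36 ± 0.08, edgeR adjusted p = 0.0296). Their groups did not overlap, with every aged library below, as in 16.2% of all genes. The 3 were picked by a test on the same libraries, so this adds no support. Igf1, the hormone that growth hormone induces in liver, had a log2 fold change of -0.65 ± 0.24 with overlapping groups (edgeR adjusted p = 0.131). Ghsr, the ghrelin receptor that drives growth hormone release, had 143, 226 and 174 reads in aged and 103, 137 and 128 in young libraries (0.50 ± 0.16, edgeR adjusted p = 0.0894). The list's median log2 fold change was -0.07.

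Of 31 tested genes of JAK-STAT signalling, SOCS proteins and receptor adaptors, 3 rose and 1 fell in edgeR, against 3.22% and 3.64% of all genes. At an unadjusted p under 0.05, 9 were higher and 3 lower, and DESeq2 called 4 higher and 2 lower. Bcl6, a repressor that binds STAT5 sites, rose by 0.80 ± 0.14, the adaptor Irs2 by 0.60 ± 0.12 and the transcription factor Stat3 by 0.40 ± 0.10 on the log2 scale (SE; edgeR adjusted p = 0.0139, 0.0205 and 0.0382). The adaptor Irs1 fell by 0.34 (edgeR adjusted p = 0.0242). Genes that carry the growth hormone signal itself did not pass in edgeR. Log2 fold changes were 0.20 ± 0.09 for Jak2, 0.21 ± 0.12 for Stat5a and 0.01 ± 0.06 for Stat5b (edgeR adjusted p = 0.187, 0.324 and 0.969). Among feedback inhibitors beside Socs2, values were 0.36 ± 0.21 for Cish and 0.96 ± 0.25 for Socs3 (edgeR adjusted p = 0.314 and 0.0509). Socs1, Socs4, Socs5 and Socs6 had estimates below 0, at -0.16, -0.06, -0.02 and -0.14. Socs7 stood at 0.003, and none of these passed. The list's median was 0.09.

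Of 27 genes for effectors of the somatostatin receptors, 4 fell and 0 rose in edgeR (2 were higher at an unadjusted p under 0.05; 0 rose in DESeq2, limma-voom and limma-trend), against 3.64% and 3.22% of all genes, with a list median of -0.06. Kcnj6, a subunit of the potassium channels that these receptors open, fell by 0.46 (edgeR adjusted p = 0.00915). The adenylyl cyclases Adcy1 and Adcy8 fell by 0.95 and 0.40, and Shank1, a scaffold protein, by 0.38 on the log2 scale (edgeR adjusted p = 0.0392, 0.0275 and 0.0258). Without young replicate 2 the log2 fold change of Adcy1 was -0.54 (edgeR adjusted p = 0.0102), and 10 of the 18 alternatives did not call it. Adcy1 had 1839, 1859 and 1687 reads in aged libraries and 2576, 4966 and 2483 in young libraries. Young replicate 2 also had the highest sum of cortex, hippocampus and amygdala markers, 573 CPM. Aged libraries had 324 to 334 CPM, and young replicates 1 and 3 had 346 and 403 CPM. Of 11 tested genes of that list, 2 fell and 0 rose in edgeR, where 3.64% of all genes fell. At an unadjusted p under 0.05, 6 were lower and 1 higher, against 26.2% of all genes in either direction. The list median was -0.42. Thalamus and habenula markers summed to 382 to 421 CPM in aged libraries and to 514, 631 and 432 CPM in young replicates 1, 2 and 3. Of 8 tested, 2 fell and 0 rose in edgeR. At an unadjusted p under 0.05, 4 of these were lower and 1 higher, with a list median of -0.72. The part of either region in Adcy1, or in the other genes described here, was not tested. Of 18 peptide processing genes, 1 rose and 0 fell in edgeR, against 3.22% and 3.64% of all genes. At an unadjusted p under 0.05, 4 were higher and 3 lower, and DESeq2 called 1 lower. The gene that rose was Scg5, a chaperone of the convertase PC2, by 0.24 ± 0.05 (SE, edgeR adjusted p = 0.0322). Scg5 lost the call in 6 of the 18 alternatives, and the list median was 0.02.

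Of 21 genes that mark or accompany somatostatin neurons, 2 rose and 1 fell in edgeR, against 3.22% and 3.64% of all genes. At an unadjusted p under 0.05, 5 were higher and 7 lower. Lhx6, a transcription factor of somatostatin neurons in the forebrain, stood at 33.4, 22.7 and 34.2 CPM in aged libraries and at 13.1, 12.4 and 9.90 CPM in young libraries. Its log2 fold change was 1.35 ± 0.17 (SE; edgeR adjusted p = 0.00434), while that of Sst was 0.22. Pdyn, the dynorphin precursor, rose by 0.45 ± 0.08 and Grin3a, a glutamate receptor subunit, fell by 0.38 (edgeR adjusted p = 0.0186 and 0.00901). Satb1, Cbln4, Rorb and Sox6 did not pass, at -0.25 ± 0.07, -0.35 ± 0.11, -0.22 ± 0.07 and -0.51 ± 0.17. Neither did Gad1 and Npy, at 0.28 ± 0.08 and 0.86 ± 0.32, and the list median was -0.14. Somatostatin neurons are also common in the telencephalon, and the part of tissue from outside the hypothalamus was not tested.

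Of 18 genes that mark or accompany GHRH neurons, 2 fell and 0 rose in edgeR, against 3.64% and 3.22% of all genes. At an unadjusted p under 0.05, 5 were higher and 5 lower, and 2 rose in DESeq2 and 1 in limma-voom. Chrm3, a muscarinic receptor, was 1 of the 2 that fell in edgeR, by 0.43 on the log2 scale (edgeR adjusted p = 0.0273). Gal, the galanin precursor, which GHRH neurons also make, had a log2 fold change of 0.58 ± 0.15 (SE; edgeR adjusted p = 0.0516), and Gsx1, a factor needed for Ghrh expression in mice, one of -0.21 ± 0.24. The list median was -0.07. Of 25 tested genes of cyclic AMP and CREB signalling, 2 rose and 1 fell, against 3.22% and 3.64% of all genes. Crem, a factor that binds the motif shown for Sst and Sstr2, rose by 0.89 ± 0.17 and Atf4, a stress-responsive factor of the same family, by 0.35 ± 0.08 (edgeR adjusted p = 0.0211 and 0.0338). Any link of Crem or Atf4 to the levels of Sst or Sstr2 was not tested. Creb1 did not pass, at 0.11 ± 0.12, and the list median was -0.03.

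These 7 lists held 20 calls among 155 genes tested, where 6.86% of all genes were called. Most of the 20 were not kept in every fit with 1 library fewer. In those fits the calls over all genes also numbered from 150 to 1633, against 1009. Without aged replicates 1, 2 and 3, 6, 19 and 1 of the 20 were kept, and without young replicates 1, 2 and 3, 6, 12 and 8 were. Lhx6 was called without each library in turn; Igf2, Kcnj6 and Grin3a lost the call without aged replicate 3 alone, at edgeR adjusted p of 0.0635, 0.0616 and 0.0532 and log2 fold changes of -0.48, -0.43 and -0.38.

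**Figure D5:**
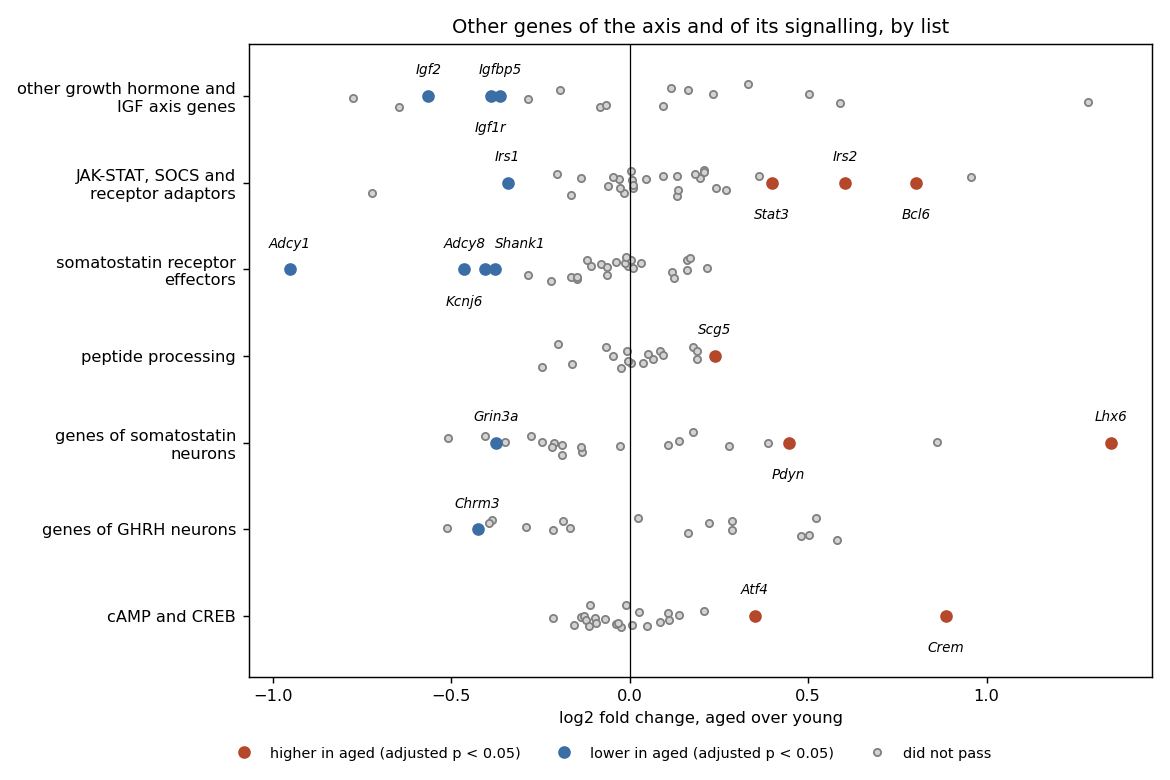
Log2 fold change, aged over young (x axis), of the tested genes in 7 lists (rows; a few genes are not plotted), with genes higher in aged in red, genes lower in aged in blue and genes that did not pass in grey; points are spread vertically for legibility only. Lhx6 is at 1.35 and Adcy1 at -0.95, and without young replicate 2 the value of Adcy1 is -0.54.

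The genes with the level pattern nearest to each of the 7 were found by the mean absolute difference of centred log2 CPM over the 6 libraries, among 13340 named genes. For Sst these were Ankrd45, Lsm7 and Ndufb4, at 0.024 to 0.026 where the median over all candidates was 0.158. For Sstr2 they were Herpud1 (0.036), Cpa4 (0.040) and Nfya (0.045), with a median over all candidates of 0.260; of these Herpud1, a gene of the endoplasmic reticulum stress response, rose (log2 fold change 0.43, edgeR adjusted p = 0.0343). The nearest gene was Hilpda for Ghrh, Tbccd1 for Sstr1, Nrg3 for Sstr3, Raly for Ghr and Slc10a4 for Socs2. Neighbours were picked as the smallest distances, so a distance far below the median follows from the selection. A direction shared with the gene itself, as for Herpud1 and Sstr2, follows from it too.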

How the data were processed

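RNA was measured by sequencing in 3 aged and 3 young libraries of mouse hypothalamus. Per the labels' protocols, a mirVana kit gave the RNA and a stranded, poly(A)-selecting TruSeq kit the libraries. The authors deposited whole-number read counts per gene and, in a second table, FPKM. FPKM equalled counts over a gene length and the library total for 18228 of 18228 genes (relative tolerance 1e-06). The submitters' processing notes name GRCm39 as the build, and HISAT2, HTSeq, Cufflinks, Trimmomatic and DESeq as tools; for strand setting and annotation release, they are silent (not given in the sources used here). In GENCODE M21 (GRCm38), no exon of the 7 genes overlapped another gene's.

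Deposited counts of aged and young libraries were compared with edgeR 4.0.16 (R 4.3.3; filterByExpr with minimum count 10 and total 15, TMM), on 14702 genes holding 99.9% of counts; limma 3.58.1 and DESeq2 1.42.0 served as alternatives. The code was tested on simulated data. Replicates differed beyond sampling noise (chi-square of 4.03 to 12.2 per degree of freedom), and each was counted as 1 sample. Such a spread does not by itself show that libraries came from separate mice. Named genes were all 7, the passing and leading genes of each list, fixed relatives, and the nearest patterns. Members and lists were chosen with earlier results of these data known, so no list is independent support. p-values for single ratios are two-sided exact permutation tests. A few genes that the naming rule takes are counted but not named or plotted here.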

Additional observations from a re-analysis of the deposited data

How the results depend on the processing

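All 18 alternatives were run for each gene. Sst, Sstr1, Sstr3, Ghr and Socs2 kept their direction and stayed above the threshold in all 18. Sstr2 kept its direction, at 0.38 to 0.61 without single libraries, and passed at 0.51 with total counts alone and 0.48 in DESeq2. Ghrh changed direction between libraries left out (-0.17 to 0.049; 0.012 without aged replicate 1, 0.049 without young replicate 3). The Ghrh to Sst ratio difference ran from -0.37 to -0.16 and the Sstr2 share difference from 6.38 to 9.65 points without single libraries. Over all genes, 474 were higher and 535 lower; 95 to 901 were higher and 55 to 732 lower without single libraries, and 293, 303 and 348 were lower with limma-trend on log2(FPKM + 1), on log2(FPKM + 0.1) and with the gene length trend removed; the cause was not tested. With the replicate number as a block, 523 were higher and 667 lower and no call among the 7 changed; same-numbered libraries deviated together at correlations of 0.095, 0.037 and -0.138, so the numbers were not taken as pairs. Reads limit the low genes: Ghrh had 121 to 171 and Socs2 133 to 228 a library.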

Other observations

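Among the listed genes not described above, Dio2 and Cga were 2 of those with widely spread values. Dio2, the deiodinase that activates thyroid hormone, had 636, 340 and 842 reads in aged libraries and 129, 388 and 213 reads in young libraries, with a log2 fold change of 1.28 ± 0.40 (SE; edgeR adjusted p = 0.0823) and overlapping groups. Cga, the common subunit of the glycoprotein hormones of the pituitary, had 0, 63 and 88 reads in aged libraries and 0, 49 and 33 reads in young libraries, an order unlike that of Gh and Prl.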
